A study of Rattus norvegicus with 6 samples.

Results

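The cytosolic ribosomal protein genes were examined in cultured spinal cord neurons after silencing of galectin-3 (GAL3). Members were chosen by gene symbol alone, as RPSA, RPLP0, RPLP1, RPLP2, or RPL or RPS followed by a number and at most the suffix A, X, L or L1. This gave 82 of the 17648 genes in the deposited matrix, 48 of the large subunit (RPL, RPLP) and 34 of the small subunit (RPS, RPSA). RPLP2, RPS6, RPS19, RPS26, RPL7A, RPL10A, RPL23A and RPL38 also meet this pattern but were not analysed here. The neurons came from neonatal Sprague-Dawley rats, were purified by density centrifugation and Ara-C, and had been kept in culture for 3 days before injury. The Glu + siR-Con group (3 libraries) was given a control small interfering RNA (siRNA) by transfection and the Glu + siR-GAL3 group (3 libraries) an siRNA against GAL3. In the paper and in the series' design text both groups were exposed to glutamate, which the protocol gives as 10 μM for 1 h followed by 16 h without it. The sample labels instead give saline for the siR-Con libraries and call the other group a knockout, so a difference in glutamate between the groups cannot be told apart from the siRNA if the labels are right. The paper states for its data in general that experiments were repeated independently, but the sources do not say of these libraries whether they came from separate cultures or how many animals were pooled. The p-values therefore measure only the spread between these libraries.

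Before the results, some facts of the libraries bear on every value. The values are expression values on a linear scale that the authors derived from FPKM (fragment counts scaled to gene length and library size) and then corrected for batch and for differences within groups, so that some lie below 0 and the sequencing depth is unknown. The targeted gene, listed as LGALS3, was 77.4, 54.4 and 62.4 in replicates 1, 2 and 3 of siR-Con, and -1.64, 32.3 and 18.5 in those of siR-GAL3. The replicate 2 library of siR-GAL3 stood apart from the other 5 on the first principal component, which held 65.2% of the variance, so the main results below are also given without it. Exactly equal values tied siR-Con replicate 1 to siR-GAL3 replicate 1, and siR-Con replicates 2 and 3 to siR-GAL3 replicate 3, while siR-GAL3 replicate 2 was tied to no other library. Markers of the labelled cell type were uneven on this per-length scale. MAP2 was 16.9, 16.4 and 18.99 in the siR-Con libraries and 18.9, 13.1 and 17.4 in the siR-GAL3 libraries, above the median level of 3.06 over all genes tested, as were TUBB3 and ELAVL3 in every library. RBFOX3, which encodes the nuclear protein NeuN of mature neurons, was 0.411, 0.378 and 0.4001 in the siR-Con libraries and 0.379, 0.2998 and 0.429 in the siR-GAL3 libraries. GFAP of astrocytes ranged from 514.8 to 757.7 and MBP of myelin from 628.6 to 918.5, so RNA of glia was present in all libraries. Levels of 3 libraries are listed in the order of replicates 1, 2 and 3. In bulk RNA, fewer cells of a type and less RNA per cell cannot be told apart.

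A cytosolic ribosome is made of a small subunit, which reads the mRNA, and a large subunit, which joins amino acids into a chain. Each ribosomal protein is, with few exceptions, present once in a ribosome, and cells keep the supply of the proteins and of ribosomal RNA in step. The mRNAs of these proteins typically begin with an unbroken run of pyrimidines, the 5′ terminal oligopyrimidine (TOP) tract, through which the kinase mTORC1 and the RNA-binding protein LARP1 control their translation together. In neurons, ribosomes and mRNAs of ribosomal proteins are found in axons and dendrites as well as in the cell body, where they serve local protein synthesis.

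The start sites of a few members are printed because they show a feature that many of these genes share and that was not used to choose them. The sequences are RefSeq windows of assembly GRCr8, 10 bases before the annotated start and 20 from it onward, read 5′ to 3′, and capitals mark a run of at least 8 C or T within 5 bases of the start. RPS27 and RPL22 are shown beside their copies RPS27L and RPL22L1. RPL23 and RPL27A were among the 8 large-subunit members with the smallest p. RPL36, RPL24 and RPL36A, of the same 8, had no such run and are not shown. RPLP0, RPL3 and RPL10 are shown because siR-GAL3 replicate 2 was not their highest library. RPL7L1 was the large-subunit member with the lowest fold change.
RPS27: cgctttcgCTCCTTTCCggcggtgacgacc
RPS27L: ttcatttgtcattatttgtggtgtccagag
RPL22: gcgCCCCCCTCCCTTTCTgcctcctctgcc
RPL22L1: gtggatatccggttccgagttgcgcagcgc
RPL23: CTTCCTTTCTgactctttccggacgctcaa
RPL27A: cttggtgggCTCCTCCCTCTTTCTTTTCTg
RPLP0: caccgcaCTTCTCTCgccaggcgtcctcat
RPL3: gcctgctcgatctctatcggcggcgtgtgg
RPL10: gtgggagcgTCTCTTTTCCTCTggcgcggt
RPL7L1: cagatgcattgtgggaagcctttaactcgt

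The windows lie at chr2:177964587-177964616 on the - strand for RPS27, chr8:76443648-76443677 on the + strand for RPS27L, chr5:168117951-168117980 on the + strand for RPL22 and chr2:113683186-113683215 on the + strand for RPL22L1. Those of the other members shown are chr10:83272165-83272194 on the - strand for RPL23, chr1:172974563-172974592 on the + strand for RPL27A, chr12:46718371-46718400 on the - strand for RPLP0, chr7:113507971-113508000 on the - strand for RPL3, chrX:157205840-157205869 on the + strand for RPL10 and chr9:21695708-21695737 on the + strand for RPL7L1. A window was found for 62 members, 1 of which had 2, so there were 63 windows. Such a pyrimidine run was present in 36 of them (57.1%), against 8.67% of all 33469 windows in the table. All 36 belonged to members without the suffix L or L1, and none of the 7 windows of suffixed members held one. A run that lies farther from the annotated start than this is not seen by the search. A counted run can also end before the annotated start, as in RPL23, so it need not form the first bases of the mRNA. The letters CTTCCG, the core of sites for ETS-family factors, stood on either strand in 33 of the 63 member windows when searched over the full window from 250 bases before to 50 after the start (52.4%), against 16.6% of all windows. The hexamer contains pyrimidines and can overlap a pyrimidine run. Among members tested for expression that had 1 window, the median log2 fold change in siR-GAL3 was 0.19 for the 33 with a run. It was 0.15 for the 23 without a run. RPS27A, with 2 windows and a run in neither, was left out. Without siR-GAL3 replicate 2, where RPL5L1 of the members without a run was no longer tested, these medians were 0.040 and 0.050.

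To ask whether silencing of GAL3 was accompanied by a different level of ribosomal protein transcripts, the 2 groups were compared gene by gene. Most members were slightly higher in siR-GAL3, and most of that height came from siR-GAL3 replicate 2. Of the 70 members with a mean of at least 1, 65 had a log2 fold change above 0, against 50% of all 8495 genes tested. On the log2 scale the median difference was 0.16 (quartiles 0.11 and 0.23), while that of all genes tested was -1.19e-05. No member had a Benjamini-Hochberg adjusted p under 0.05 in limma, where 0% of all genes did. Without adjustment, 2 members passed p under 0.05, both higher, RPL23 among them, against 8.66% of all genes in either direction and 4.41% higher. The groups did not overlap for 18 of the 70 members, all higher in siR-GAL3 (25.7%), against 10.3% of all genes higher and 10.3% lower. For a single gene, 3 against 3 libraries cannot give a two-sided exact permutation p below 0.1. The members were measured in the same 6 libraries and move together, so these counts are not independent observations.

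The library by library values show where the difference lay. As a share of the column total, the summed members were 3.64%, 3.52% and 3.41% in replicates 1, 2 and 3 of siR-Con, and 3.59%, 4.49% and 3.67% in those of siR-GAL3. The group means were 3.52 ± 0.116% and 3.92 ± 0.5003% (SD, n = 3 each), so the spread of siR-GAL3 was larger than the difference between the groups. Relative to each gene's mean over the 6 libraries, the median member was -0.028, -0.077 and -0.13 log2 units in siR-Con and -0.041, 0.34 and -0.023 in siR-GAL3. The median of all genes tested was 0.028 in siR-GAL3 replicate 2 and within 0.0064 of 0 in the other libraries. The highest value of a member was found in siR-GAL3 replicate 2 for 64 of 70 members (91.4%), against 41.5% of all genes tested. The lowest value was found in siR-Con replicate 3 for 41 members (58.6%), against 15.3% of all genes. The 6 members that did not peak in siR-GAL3 replicate 2 were RPL3, RPL10, RPL7L1, RPLP0, RPS9 and RPS9L1, the last 2 of which are listed with the same values. These 6 are set apart here after their values were seen.

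**Figure D1:**
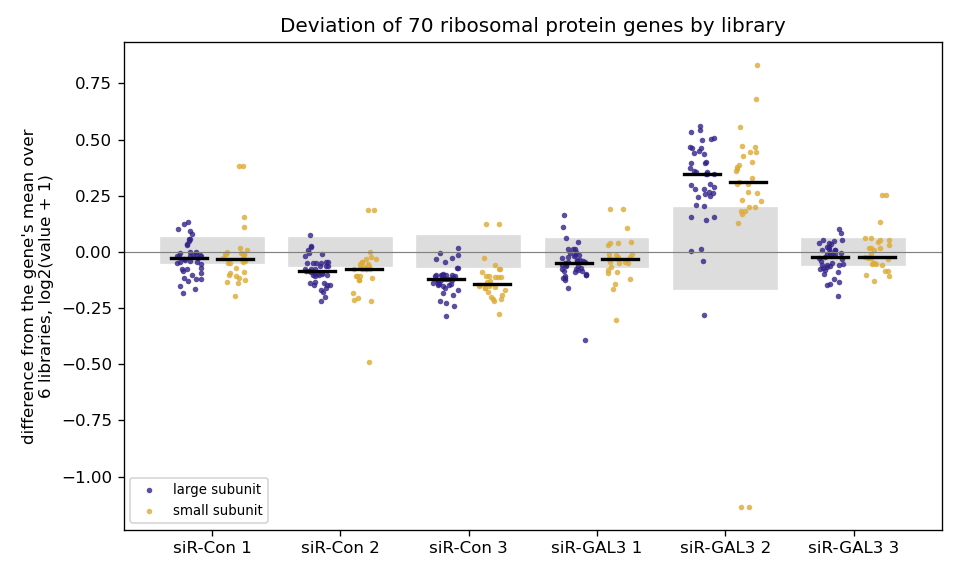
Difference of each of the 70 tested ribosomal protein genes from its own mean over the 6 libraries, in log2(value + 1), by library, with the large subunit in dark blue, the small subunit in yellow, black lines at the medians and grey boxes between the quartiles of all 8495 genes tested. The medians lie between -0.14 and -0.023 in 5 libraries and at 0.35 and 0.31 in siR-GAL3 replicate 2, where RPS9 and RPS9L1 are the lowest points.

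Without siR-GAL3 replicate 2 the difference was smaller. Of the 69 members then tested, 51 were higher in siR-GAL3, against 48.7% of all genes, and the median log2 fold change was 0.042 (quartiles -0.0030 and 0.087). No member had an adjusted p under 0.05, against 1.97% of all genes, and 5 had an unadjusted p under 0.05, all higher, against 6.92% of all genes higher. RPL36A, RPL36, RPL23 and RPS27 were among these, with log2 fold changes of 0.12, 0.17, 0.15 and 0.15. The sets of libraries tied by equal values gave unlike results. Within the first set, siR-GAL3 replicate 1 was above siR-Con replicate 1 for 32 of 70 members, near the 46.8% of all genes, with a median log2 difference of -0.017. Within the second set, siR-GAL3 replicate 3 was above the mean of siR-Con replicates 2 and 3 for 61 of 70, against 50.1% of all genes, with a median of 0.076. In the first set 11 of 29 small-subunit and 21 of 41 large-subunit members were higher, and in the second set 29 of 29 and 32 of 41. With the set as a block, the median log2 fold change over the members was 0.038, 4 had an unadjusted p under 0.05, against 13.8% of all genes, and none an adjusted p under 0.05, against 1.25%. The siR-GAL3 replicate 2 library has no partner in its set and adds nothing to that fit.

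The large and the small subunit had medians of similar size. The median log2 fold change was 0.15 over 41 large-subunit genes (quartiles 0.11 and 0.23, 38 higher and 3 lower) and 0.18 over 29 small-subunit genes (quartiles 0.14 and 0.23, 27 higher and 2 lower). Without siR-GAL3 replicate 2 the medians were 0.039 and 0.056. The summed values of the large subunit were 1309 ± 45.1 in siR-Con and 1444 ± 188 in siR-GAL3, and those of the small subunit 962 ± 32.5 and 1086 ± 142 (SD, n = 3 each). The ratio of the large to the small sum was 1.37, 1.34 and 1.37 in siR-Con and 1.33, 1.33 and 1.33 in siR-GAL3. Every siR-GAL3 library had a slightly lower ratio than every siR-Con library. In this ratio siR-GAL3 replicate 2 did not stand apart from the other siR-GAL3 libraries. The gap was narrow, between 1.343 in siR-Con replicate 2 and 1.333 in siR-GAL3 replicate 1. The ratio was not tested, and the values had been corrected within groups.

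In the large subunit, the stalk and the 5S particle were described first. The stalk, built on RPLP0, recruits the elongation factors to the ribosome. RPLP0, with the highest mean of the large subunit on this per-length scale, was 106, 93.3 and 97.97 in replicates 1, 2 and 3 of siR-Con, and 101, 98.7 and 93.3 in those of siR-GAL3. RPLP1, one of the acidic stalk proteins, was 47.6, 48.8 and 44.8 in the siR-Con libraries and 46.9, 58.6 and 43.4 in the siR-GAL3 libraries. Neither separated the groups, and their log2 fold changes were -0.016 (SE 0.076) and 0.065 (SE 0.12). RPL5 and RPL11, which carry the 5S ribosomal RNA into the ribosome and can bind the p53 regulator MDM2, peaked in siR-GAL3 replicate 2. RPL5 was 37.6, 36.5 and 35.3 in the siR-Con libraries and 37.8, 43.8 and 36.3 in the siR-GAL3 libraries. RPL11 was 16.3, 16.3 and 15.5 in the siR-Con libraries and 16.2, 24.5 and 17.4 in the siR-GAL3 libraries. The log2 fold change of RPL11 was 0.24 (SE 0.15), and 0.063 without siR-GAL3 replicate 2. That of RPL5 was 0.10, and 0.024 without that library.

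The members with the smallest p in the large subunit were RPL23, RPL36, RPL27A, RPL24, RPL28, RPL36A, RPL22 and RPL34. RPL23, a protein of the face that joins the subunits, was 34.1, 32.999 and 34.4 in replicates 1, 2 and 3 of siR-Con, and 35.8, 47.3 and 39.3 in those of siR-GAL3. Its means were 33.8 ± 0.727 in siR-Con and 40.8 ± 5.93 in siR-GAL3 (SD, n = 3 each), which gave a log2 fold change of 0.25 (SE 0.11, unadjusted p = 0.0487, adjusted p = 0.574 in limma). All siR-GAL3 libraries were above all siR-Con libraries, and without siR-GAL3 replicate 2 the log2 fold change was 0.15 (unadjusted p = 0.0384). RPL36, which had the largest fold change of the large subunit, was 48.2, 47.03 and 52.1 in the siR-Con libraries and 53.4, 75.97 and 56.9 in the siR-GAL3 libraries. Its means were 49.1 ± 2.67 and 62.1 ± 12.1 (SD, n = 3 each), with a log2 fold change of 0.32 (SE 0.14, adjusted p = 0.577 in limma). The groups were separate for RPL36 too, by the gap between siR-Con replicate 3 and siR-GAL3 replicate 1. RPL36A, whose protein lies near the exit site of the transfer RNA, was 16.6, 16.7 and 16.7 in the siR-Con libraries and 17.97, 26.7 and 18.5 in the siR-GAL3 libraries. The siR-Con libraries of RPL36A lay close together, with an SD of 0.0351 around a mean of 16.7 (n = 3), and without siR-GAL3 replicate 2 its log2 fold change was 0.12 (unadjusted p = 0.0328).

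Of these 8 members, only RPL23 had an unadjusted p under 0.05 over the 6 libraries. RPL24, which forms a bridge between the subunits, was 40.99, 42.4 and 41.1 in the siR-Con libraries and 44.5, 57.4 and 45.3 in the siR-GAL3 libraries. RPL27A was 28.5, 28.1 and 27.1 in the siR-Con libraries and 29.5, 37.2 and 30.9 in the siR-GAL3 libraries. RPL28 was 18.1, 17.9 and 16.2 in the siR-Con libraries and 18.5, 26.6 and 19.96 in the siR-GAL3 libraries. For these genes, too, the groups did not overlap, and siR-GAL3 replicate 2 was the highest library. RPL34 was 50.2, 52.4 and 52.5 in the siR-Con libraries and 53.2, 76.8 and 57.3 in the siR-GAL3 libraries. RPL22, an RNA-binding protein outside the catalytic core, was 10.04, 9.297 and 8.75 in the siR-Con libraries and 9.53, 13.9 and 11.2 in the siR-GAL3 libraries. RPL22 overlapped between the groups, since siR-GAL3 replicate 1 was below siR-Con replicate 1. The log2 fold changes of RPL24, RPL27A, RPL28, RPL34 and RPL22 were 0.23, 0.21, 0.29, 0.25 and 0.26, with adjusted p between 0.585 and 0.589 in limma. Without siR-GAL3 replicate 2 they were 0.11, 0.11, 0.14, 0.094 and 0.13, in the same direction and smaller.

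In the small subunit, RPS27A, RPS27, RPS12, RPS21, RPS27L and RPS3A were among the 8 members with the smallest p. RPS27A, which is made as a fusion with ubiquitin, was 30.9, 29.5 and 27.6 in the siR-Con libraries and 31.6, 39.7 and 32.9 in the siR-GAL3 libraries. RPS27, a zinc-finger protein, was 18.7, 17.04 and 17.9 in the siR-Con libraries and 20.6, 27.96 and 19.2 in the siR-GAL3 libraries. RPS12 was 33.5, 34.2 and 31.4 in the siR-Con libraries and 34.95, 46.6 and 37.5 in the siR-GAL3 libraries. These genes also had no overlap between the groups. RPS3A, which lies on the platform of the small subunit, was 33.7, 35.9 and 34.8 in the siR-Con libraries and 36.3, 41.8 and 38.1 in the siR-GAL3 libraries. Its groups were separate too, with siR-GAL3 replicate 2 the highest. RPS21 was 5.58, 3.69 and 4.82 in the siR-Con libraries and 4.96, 9.54 and 6.22 in the siR-GAL3 libraries, with a log2 fold change of 0.45 (SE 0.22) that was the largest of all members. Its libraries were scattered, siR-Con replicate 1 was above siR-GAL3 replicate 1, and the log2 fold change was 0.22 without siR-GAL3 replicate 2. For RPS27A, RPS27, RPS12 and RPS3A the log2 fold changes were 0.23, 0.30, 0.25 and 0.15, with adjusted p of 0.577, 0.5797, 0.583 and 0.585 in limma, and 0.13, 0.15, 0.13 and 0.094 without that library. RPS27L is described with its parent gene.

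RPS2 and RPSA had high levels in the small subunit, and RPS2 differed less between the groups than RPSA did. RPS2, which lines the entry of the mRNA channel, had the highest mean of all members and was 132, 128 and 124 in the siR-Con libraries and 126, 147 and 128 in the siR-GAL3 libraries. RPSA, also known as the laminin receptor precursor, was 123, 117 and 109 in the siR-Con libraries and 118, 140.4 and 128 in the siR-GAL3 libraries. Their log2 fold changes were 0.058 and 0.14, and -0.011 and 0.079 without siR-GAL3 replicate 2. The medians of the small subunit in these fits were 0.18 and 0.056, so RPSA was below the first and above the second. Over the 70 tested members, the rank correlation between the mean level and the log2 fold change was -0.318, and that between the mean level and the deviation of siR-GAL3 replicate 2 was -0.451. These describe genes that share the same libraries, and a fold change on the log2(value + 1) scale understates low genes.

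**Figure D2:**
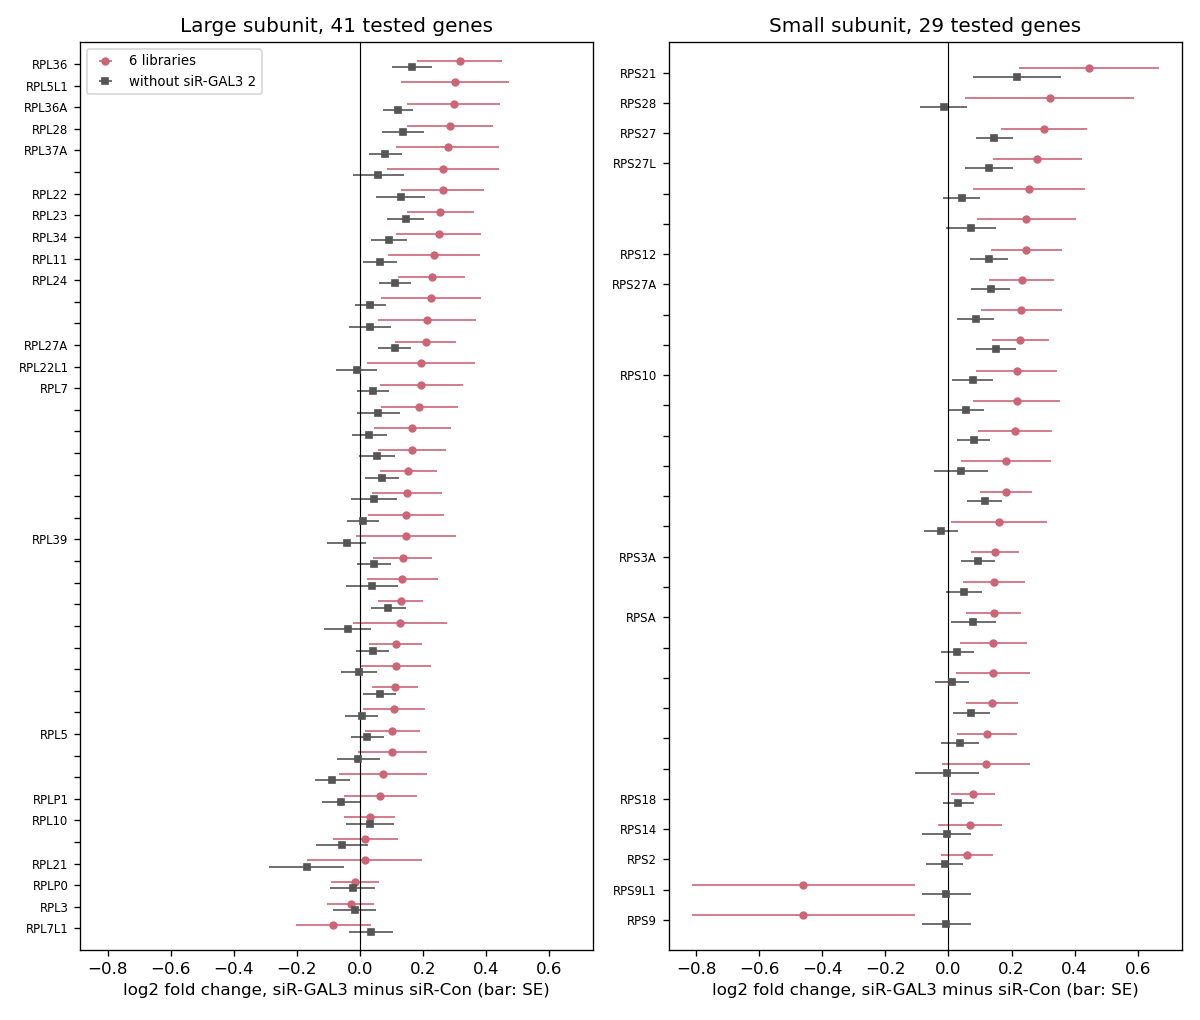
Log2 fold change of each tested member in siR-GAL3 against siR-Con from limma, with bars of 1 standard error, over the 6 libraries (red circles) and without siR-GAL3 replicate 2 (grey squares). In the fit of 6 libraries 65 of 70 members lie above 0, and without that library 51 of 69 do, with a median closer to 0. Labels mark genes described in the text.

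Several members have a copy, and reads of near-identical copies may be split or dropped in counting, so these values are uncertain. RPS27L, a copy of RPS27 whose gene responds to p53, was 2.49, 2.302 and 2.58 in the siR-Con libraries and 3.097, 4.19 and 2.49 in the siR-GAL3 libraries. The groups overlapped for RPS27L but not for RPS27. The log2 fold changes were 0.28 for RPS27L and 0.30 for RPS27, and 0.13 and 0.15 without siR-GAL3 replicate 2, at mean levels of 2.86 and 20.2, and the difference between the pair was not tested. RPL22L1, the copy of RPL22, was 2.29, 2.08 and 2.16 in the siR-Con libraries and 2.35, 3.83 and 1.97 in the siR-GAL3 libraries. Unlike RPL22, it was not higher in siR-GAL3 without replicate 2, where its log2 fold change was -0.0098 against 0.13 for RPL22, but the difference between the pair was not tested. RPL7, 5.84, 5.59 and 5.43 in the siR-Con libraries and 5.88, 8.36 and 5.76 in the siR-GAL3 libraries, had a log2 fold change of 0.19, and 0.042 without siR-GAL3 replicate 2. RPL7L1, whose product acts in assembly of the large subunit, was 7.39, 7.297 and 6.64 in the siR-Con libraries and 7.82, 5.48 and 6.804 in the siR-GAL3 libraries. In siR-GAL3 replicate 2, RPL7 was at its highest and RPL7L1 at its lowest. RPL5L1 was 0.965, 0.834 and 0.895 in the siR-Con libraries and 0.885, 2.11 and 1.19 in the siR-GAL3 libraries, and it fell under a mean of 1 when siR-GAL3 replicate 2 was left out.

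RPS9 and RPS9L1 shared all 6 values, 1.86, 1.5002 and 1.398 in the siR-Con libraries and 1.51, -0.0736 and 1.63 in the siR-GAL3 libraries, so they count as 1 measurement. They went the other way in siR-GAL3 replicate 2, where the value was below 0 and was set to 0 for the fit, and this library alone gave their log2 fold change of -0.46, which was -0.0065 without it. Members with a copy under a mean of 1 included RPL3, RPL10, RPL34, RPL39, RPS10 and RPS18. RPL3, at the peptidyl transferase centre, was 77.2, 70.5 and 67.3 in the siR-Con libraries and 70.1, 68.8 and 71.3 in the siR-GAL3 libraries. RPL10, one of the last proteins to join the large subunit, was 44.1, 42.8 and 39.4 in the siR-Con libraries and 45.99, 42.9 and 40.2 in the siR-GAL3 libraries. Both overlapped between the groups. RPL39, in the exit tunnel, was 8.77, 7.797 and 8.71 in the siR-Con libraries and 8.34, 12.5 and 7.95 in the siR-GAL3 libraries, with a log2 fold change of 0.15 that was -0.042 without siR-GAL3 replicate 2. The log2 fold changes of RPL3 and RPL10 were -0.030 and 0.031, and -0.017 and 0.032 without that library. RPS10 was 32.4, 28.7 and 29.9 in the siR-Con libraries and 30.9, 43.04 and 33.1 in the siR-GAL3 libraries. RPS18 was 27.9, 27.2 and 26.9 in the siR-Con libraries and 27.5, 30.8 and 28.5 in the siR-GAL3 libraries. Both of these small-subunit parents peaked in siR-GAL3 replicate 2 and overlapped between the groups.

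The 12 members with a mean under 1 were not tested. They held copies known from few tissues and genes of the core ribosome. Most were nearer to 0 than to 1. Among the copies, RPL10L, known from testis, was 0.6098, 0.831 and 0.651 in the siR-Con libraries and 1.08, 1.04 and 0.803 in the siR-GAL3 libraries. RPL39L, also known from testis, was 0.0262, 0.0144 and 0.0144 in the siR-Con libraries and 0.0389, 0.218 and 0.0715 in the siR-GAL3 libraries. RPL3L, known from heart and skeletal muscle, was 0.0676, 0.0591 and 0.0375 in the siR-Con libraries and 0.01495, 0.00501 and 0.0251 in the siR-GAL3 libraries. These tissue-restricted copies were under or near 1 unit throughout. RPS10L1 was 0.226, 0.416 and 0.367 in the siR-Con libraries and 0.282, 0.762 and 0.409 in the siR-GAL3 libraries. RPS18L1 was 0.461, 0.393 and 0.535 in the siR-Con libraries and 0.313, 0.859 and 0.469 in the siR-GAL3 libraries. Only RPL10L reached 1 in any library among these copies. RPL34L1 and RPS19L1 lay within 0.03 of 0 in every library. Every cell needs RPL8, RPL35A, RPL37 and RPS13, yet RPL8 was listed at 0.00165 in 5 libraries and -0.00329 in siR-GAL3 replicate 2. RPL8 lies at the peptidyl transferase centre. RPL35A was 0.175, 0.0265 and 0.0508 in the siR-Con libraries and 0.0446, 0.0311 and 0.0468 in the siR-GAL3 libraries. RPL37 was 0.0593, 0.0415 and 0.0161 in the siR-Con libraries and 0.0268, 0.0756 and 0.0323 in the siR-GAL3 libraries. RPS13 was 0.1896, 0.275 and 0.229 in the siR-Con libraries and 0.247, 0.4004 and 0.275 in the siR-GAL3 libraries. These 4 rows, with RPL37A, RPLP1 and RPS14, each shared all 6 values with a row of another name, as did RPS9, and how counts were assigned to such rows is not given in the sources used here. In the rat annotation of GRCr8, 871 pseudogenes carry the symbol of a ribosomal protein.

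**Figure D3:**
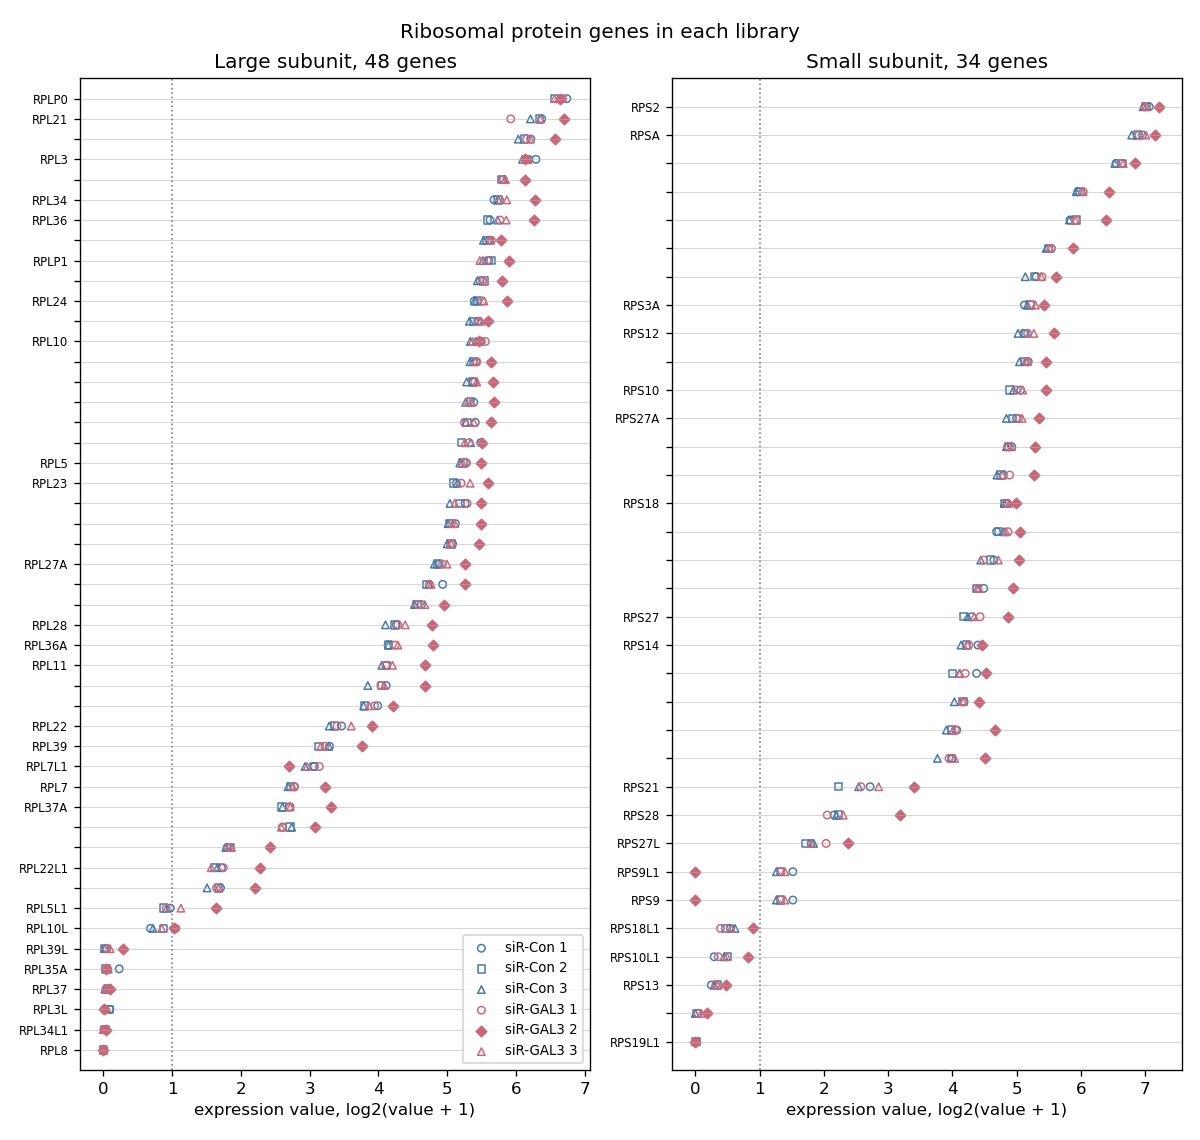
Expression value of all 82 members in each library on the scale log2(value + 1), values below 0 set to 0, ordered by mean, with siR-Con in blue, siR-GAL3 in red, siR-GAL3 replicate 2 as filled diamonds and a dotted line at a value of 1. The filled diamonds lie to the right of the other symbols for 64 of the 70 tested members, and RPL8 and RPL35A lie near 0. Labels mark genes described in the text.

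The 36 tested members that the naming rule did not pick were all higher in siR-GAL3 over the 6 libraries. The 22 of the large subunit had log2 fold changes between 0.015 for RPL21 and 0.28 for RPL37A, and the 14 of the small subunit between 0.069 for RPS14 and 0.32 for RPS28. Their unadjusted p in limma was 0.114 or more. In the fit without siR-GAL3 replicate 2, 16 of the 22 and 10 of the 14 were higher, between -0.17 and 0.090 and between -0.023 and 0.087. RPS28 rested on 1 library, with values of 3.46, 3.68 and 3.57 in the siR-Con libraries and 3.15, 8.11 and 3.93 in the siR-GAL3 libraries, and its log2 fold change without siR-GAL3 replicate 2 was -0.015. RPL21 had its lowest and its highest value within siR-GAL3, at 59.6, 102 and 80.8 in replicates 1, 2 and 3 against 81.8, 80.1 and 72.99 in siR-Con. RPL21 and RPS28 are named after their values were seen.

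The rest of the translation machinery was compared through lists of genes. The proteins of the mitochondrial ribosome, which translate the mitochondrial genome and are encoded apart from the cytosolic ones, showed a similar height in siR-GAL3 replicate 2. Of 70 genes tested, 66 were higher in siR-GAL3, against 50% of all genes, the median being 0.12 on the log2 scale. For 69 the highest value lay in siR-GAL3 replicate 2, against 41.5% of all genes. Without that library 34 were higher, against 48.7% of all genes, and 36 lower, with a median of -0.0087. Of the mitochondrial genes 2 had an unadjusted p under 0.05, both higher, against 8.66% of all genes in either direction and 4.41% higher. None had an adjusted p under 0.05. Their members with the smallest p were MRPL49, MRPS15 and MRPL13, with log2 fold changes of 0.33, 0.30 and 0.33, and 0.26, 0.16 and 0.16 without that library. Components of the cytosolic ribosome that the symbol rule leaves out were also high in that library. Their median log2 fold change was 0.19, and 0.023 without it. FAU, which encodes a small-subunit protein as a fusion with a ubiquitin-like one, was 14.1, 13.4 and 12.5 in the siR-Con libraries and 14.6, 22.3 and 14.6 in the siR-GAL3 libraries. RPL36AL was 6.599, 7.42 and 6.02 in the siR-Con libraries and 7.13, 10.1 and 6.43 in the siR-GAL3 libraries. RACK1, a scaffold on the small subunit, was 17.5, 15.2 and 15.3 in the siR-Con libraries and 15.7, 18.4 and 16.03 in the siR-GAL3 libraries. All 4 genes of that list peaked in siR-GAL3 replicate 2, against 41.5% of all genes, and none had an unadjusted p under 0.05, against 8.66%.

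Genes of ribosome assembly were compared next. Of 47 assembly factors tested, 40 were higher, against 50% of all genes, and 7 lower. The median log2 fold change was 0.087, and 0.039 without siR-GAL3 replicate 2. An unadjusted p under 0.05 in limma was found for 2 of the 47, against 8.66% of all genes. They were GNL3L, a nucleolar GTPase that was lower (-0.19, unadjusted p = 0.0355 in limma), and GNL3 (nucleostemin), which was higher (0.21, unadjusted p = 0.0434 in limma). The next smallest p was that of WDR12 (unadjusted p = 0.0619 in limma), whose log2 fold change was 0.19, and 0.11 without siR-GAL3 replicate 2. GNL3L was 6.77, 7.04 and 7.15 in the siR-Con libraries and 6.35, 5.44 and 6.16 in the siR-GAL3 libraries. GNL3 was 2.97, 2.81 and 2.61 in the siR-Con libraries and 3.13, 3.84 and 3.22 in the siR-GAL3 libraries. For both, the groups did not overlap and the direction was the same without siR-GAL3 replicate 2, with log2 fold changes of -0.14 and 0.14. Over the 47 factors, 9 were higher and 1 lower with no overlap, against 10.3% of all genes each way. Of 9 genes of RNA polymerase I and its factors, which transcribe ribosomal RNA, 6 were higher, against 50% of all genes. Without siR-GAL3 replicate 2 only 1 was higher, against 48.7% of all genes. RRN3, POLR1A and POLR1D had the smallest p, with log2 fold changes of -0.13, -0.085 and 0.14. With that library left out these were -0.12, -0.031 and -0.014, so that POLR1D changed sign.

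The medians of translation factors lay nearer to 0. Of 36 initiation factors, 23 were higher and 13 lower (median log2 fold change 0.037), and of 8 genes of the elongation list, which includes TPT1, 7 were higher (median 0.056). No gene of either list had an unadjusted p under 0.05. Of all genes, 50% were higher and 8.66% had such a p. Without siR-GAL3 replicate 2 the medians were 0.019 for initiation and 0.030 for elongation. The initiation factors with the smallest p were EIF4G2, EIF2S2 and EIF6, with log2 fold changes of -0.19, 0.13 and 0.17, and those of the elongation list were TPT1, EEF1D and EIF5A2, with 0.15, 0.16 and 0.066. Leaving out siR-GAL3 replicate 2, the initiation factors were at -0.12, 0.14 and 0.10, while TPT1 was at 0.044, EEF1D at -0.026 with its sign changed, and EIF5A2 at 0.056. TPT1, whose mRNA also carries a TOP tract, was 109, 108 and 107 in the siR-Con libraries and 112, 139.5 and 111 in the siR-GAL3 libraries, with no overlap between the groups. Among 18 genes of translation control, 8 were higher and 10 lower, with a median log2 fold change of -0.034, and 2 had an unadjusted p under 0.05, against 8.66% of all genes. When siR-GAL3 replicate 2 was left out the balance turned, with 11 higher, 7 lower, a median of 0.026 and 3 at an unadjusted p under 0.05, against 16.3% of all genes. RPS6KA1, a kinase of ribosomal protein S6, was 1.04, 1.04 and 0.878 in the siR-Con libraries and 1.15, 1.31 and 1.33 in the siR-GAL3 libraries, with a log2 fold change of 0.19 (unadjusted p = 0.0216, adjusted p = 0.499 in limma). EIF2AK2 (PKR), which stops initiation in response to double-stranded RNA and is induced by interferon, was 3.36, 2.83 and 2.57 in the siR-Con libraries and 5.83, 3.51 and 3.82 in the siR-GAL3 libraries, a log2 fold change of 0.44 (unadjusted p = 0.0332, adjusted p = 0.535 in limma). With the library set as a block it was the 1 gene of this list with an adjusted p under 0.05, with a log2 fold change of 0.50 (adjusted p = 0.0446 in limma), and without siR-GAL3 replicate 2 the adjusted p was 0.113. The groups did not overlap, and the highest library was siR-GAL3 replicate 1, not replicate 2. MYC, a transcription factor that drives ribosome production, had the next smallest p and was 3.13, 3.21 and 3.38 in the siR-Con libraries and 3.39, 3.83 and 3.87 in the siR-GAL3 libraries, with a log2 fold change of 0.15. RPS6KA1, EIF2AK2 and MYC had log2 fold changes of 0.18, 0.55 and 0.13 without siR-GAL3 replicate 2.

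**Figure D4:**
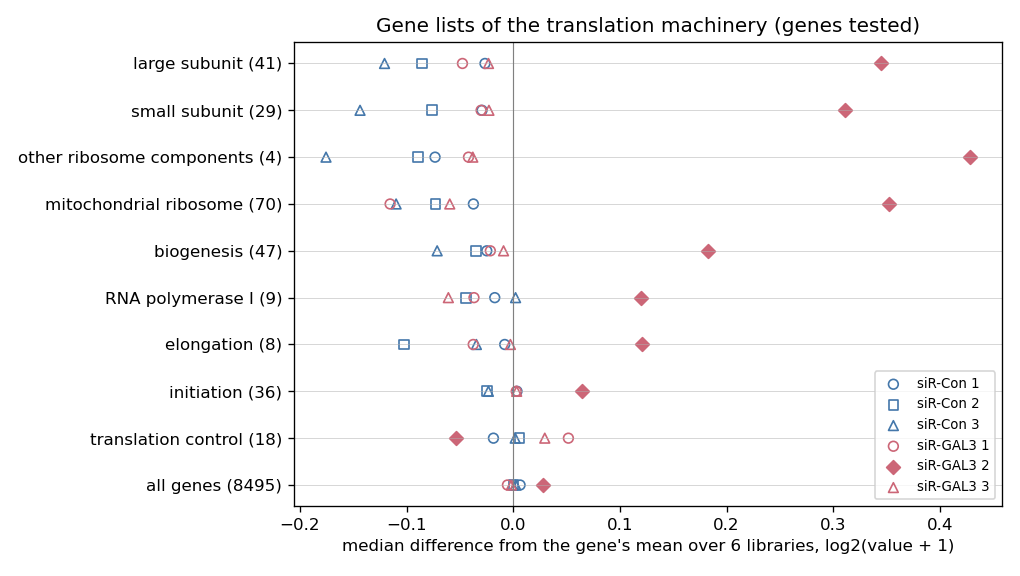
Median difference from the gene's mean over the 6 libraries, in log2(value + 1), for each gene list (number of genes tested in brackets) and library, with siR-Con in blue, siR-GAL3 in red and siR-GAL3 replicate 2 filled. In that library the median is 0.35 for the large subunit, 0.31 for the small subunit, 0.35 for the mitochondrial ribosome and 0.065 for initiation factors, and below 0 for translation control.

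The levels of cell type markers are given beside these results. The summed values of 8 of 9 neuron markers were 35.3, 32.7 and 37.4 in siR-Con and 36.7, 30.2 and 37.4 in siR-GAL3, of all 5 astrocyte markers 918, 825 and 764 in siR-Con and 716, 682 and 667 in siR-GAL3, and of all 7 markers of the oligodendrocyte lineage 975, 916 and 948 in siR-Con and 912, 1029 and 1221 in siR-GAL3. The astrocyte sum was mostly GFAP, and both were lower in all siR-GAL3 libraries than in all siR-Con libraries. ALDH1L1 was also lower with no overlap between the groups (log2 fold change -0.26), and AQP4 was at -0.21 with overlap. The other astrocyte markers, SLC1A3 and GJA1, had log2 fold changes of 0.058 and 0.016. In siR-GAL3 replicate 2 the neuron sum was the lowest of the 6 libraries, while the astrocyte and oligodendrocyte sums lay within the range of the others. The neuron markers did not move as one there. MAP2, ELAVL3 and RBFOX3 were at their lowest in that library, STMN2 and NEFL at their highest, and TUBB3, SYT1 and NEFM in between. STMN2 was above all siR-Con libraries in every siR-GAL3 library, with a log2 fold change of 0.33. The sums of 7 microglia markers were 38.5, 47.02 and 48.5 in siR-Con and 56.7, 43.8 and 48.8 in siR-GAL3, those of 4 genes of dividing cells 16.01, 12.8 and 12.9 in siR-Con and 10.5, 14.9 and 12.002 in siR-GAL3 and those of 3 of 4 fibroblast markers 24.6, 27.6 and 27.2 in siR-Con and 21.9, 19.9 and 19.9 in siR-GAL3. The fibroblast sum was carried by COL1A1 (log2 fold change -0.42). LUM was at -0.47, with overlap between the groups, while DCN was at 0.16. All 6 microglia markers tested had a log2 fold change above 0, against 50% of all genes. Of these, AIF1 and ITGAM had an adjusted p under 0.05 in limma without siR-GAL3 replicate 2, against 1.97% of all genes. CX3CR1 and P2RY12 were at only 0.016 and 0.023, and at 0.23 and 0.080 without that library. CX3CR1 and CSF1R had their lowest value in siR-GAL3 replicate 2. AIF1 was 1.69, 1.74 and 1.86 in the siR-Con libraries and 2.64, 3.73 and 2.98 in the siR-GAL3 libraries, with a log2 fold change of 0.57 (adjusted p = 0.149 in limma), and 0.46 without that library (adjusted p = 0.0168 in limma). ITGAM had log2 fold changes of 0.36 and 0.47, with adjusted p of 0.51002 and 0.042004 in limma. These marker genes were singled out after their values were seen. Of 3 endothelial markers only CDH5 was listed, under 1 in every library. The lowest of the neuron markers were RBFOX3 and NEFL, under 0.5 in every library. The part of these levels, and of whatever set siR-GAL3 replicate 2 apart, in the height of the ribosomal protein genes was not tested.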

How the data were processed

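RNA of 6 libraries was sequenced, 3 Glu + siR-Con and 3 Glu + siR-GAL3. Per the paper, the authors aligned reads with STAR, counted them per gene with HTSeq, computed FPKM, and afterwards applied batch removal, standardization and a correction within groups, by tools not given in the sources used here. The deposited values are therefore FPKM-derived and not counts, their depth is unknown, and the spread between replicates is what that correction left. The labels speak of ribosomal RNA depletion, the supplement of poly-A selection. The genome build of the files is not given in the sources used here. Values below 0 were set to 0 (24 of the genes tested), and genes whose mean reached 1 (8495) entered a limma 3.58.1 fit (R 4.3.3, trend on intensity) of log2(value + 1), with Benjamini-Hochberg adjustment over all 8495. The fit was checked on simulated data. Members by symbol and the lists were chosen with earlier results of these data known. Named with values were the 8 members of each subunit with the smallest p, members of the stalk, the 5S particle and other roles, copies with their parents, the highest and lowest members, members under a mean of 1, and the 3 genes of each other list with the smallest p. Of the 82 members, 79 matched a RefSeq symbol and 62 a start-site window (GRCr8). The values of a few genes that the naming rule picked are not reported here. The alternatives were another pseudocount, filter, scaling and trend, blocks, each library left out, and values not log-transformed.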

Additional observations from a re-analysis of the deposited data

How the results depend on the processing

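The number of members with an unadjusted p under 0.05, 2 of 70 over the 6 libraries, was the least stable value. It was 4 after median-ratio scaling, 4 with library sets as blocks and 6 on values not log-transformed, against 9.099%, 13.8% and 9.08% of all genes. With each library left out it ranged from 0 without siR-Con replicate 1, 2 or 3 (against 6.21%, 4.29% and 4.26% of all genes) to 14 without siR-GAL3 replicate 1 (14.7%), with 5 and 4 without siR-GAL3 replicates 2 and 3 (16.3% and 6.75%). No member had an adjusted p under 0.05 under any alternative run. The medians moved by less than 1 SD between replicates under every alternative on the log2 scale. That SD includes siR-GAL3 replicate 2 and is wide, so this limit does not show that the medians were stable. With each library left out they ranged from 0.039 to 0.22 for the large and from 0.056 to 0.26 for the small subunit, both lowest without siR-GAL3 replicate 2. Of 34 tested members named with values, many of them for a small p, the sign changed in 15 of 498 fits. Fits that altered only the filter, the trend or the replicate block leave a member's fold change as it is. They could not change a sign, so this count does not measure how stable the signs were. The 36 other tested members are not in the count of 498 fits. All of these were higher over the 6 libraries, but 6 of 22 in the large and 4 of 14 in the small subunit were lower without siR-GAL3 replicate 2. With the library set as a block, RPL22L1 was at -0.030, RPL39 at -0.054, RPL7L1 at 0.015, RPLP1 at -0.069 and RPS2 at -0.017. With each library left out, the log2 fold change ranged from -0.0098 to 0.34 for RPL22L1, from -0.042 to 0.26 for RPL39, from -0.19 to 0.035 for RPL7L1, from -0.059 to 0.15 for RPLP1, from -0.011 to 0.10 for RPS2, from -0.017 to 0.079 for RPL10, from -0.073 to 0.024 for RPL3 and from -0.058 to 0.032 for RPLP0.

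A pairing of the libraries by replicate number was not seen in their deviations, which cannot exclude one because the values had been corrected within groups. Equal values tied siR-Con replicate 1 to siR-GAL3 replicate 1 and siR-Con replicate 3 to siR-GAL3 replicate 3. They also tied siR-Con replicate 2 to siR-GAL3 replicate 3. The deviations of same-numbered libraries from their group means had correlations of -0.1701, -0.0699 and 0.0441 across genes for replicates 1, 2 and 3, and not every library correlated best with its own number. With the replicate number as a block, 0 members had an unadjusted p under 0.05, and the number of all genes with an adjusted p under 0.05 went from 0 to 6. Because the deposited values had been corrected within groups and hold no depth, small differences of single members cannot be given a counting error.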
